A study of Homo sapiens with 6 samples.

Results

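The small GTPase CDC42 passes its signal on through effector proteins, and MRCKα and MRCKβ, the kinases encoded by CDC42BPA and CDC42BPB, are among them. The RNA of 10 other effector genes that encode neither MRCK nor PAK kinases is described here, out of 17064 genes measured. They were chosen by name and not by any measured value, although earlier results of these data were known. They are CDC42EP1, CDC42EP2, CDC42EP3, CDC42EP4, CDC42EP5, CDC42SE1, CDC42SE2, TNK2, IQGAP1 and PARD6A. In cells with guide RNAs against both MRCK genes, none of the effector genes passed the test for a changed RNA level, but neither did any other gene (0%). Of the 9 that could be tested, 8 had an estimate whose 95% interval lay within a 2-fold change in either direction, as had 76.7% of all tested genes. These 8 had at least 411 estimated reads in every library, while the tested genes included genes with far fewer.

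RNA came from MDA-MB-231, an established human triple-negative breast cancer cell line grown from a metastatic site, as 6 libraries. The 2 vector libraries (vector 1 and vector 2) carried the empty lentiCRISPRv2 plasmid from separate transductions, so all cells, controls included, had been infected with a lentivirus and selected with an antibiotic. The MRCKα KO (CDC42BPA knockout) and the MRCKβ KO (CDC42BPB knockout) had 1 library each, and the double knockout of both genes (DKO) had 2 libraries, made with different guide RNAs. Which guide belonged to which library is not given in the sources used here. The knockout cells were pools from which no clones had been picked. The DKO libraries therefore differ in guide as well as in culture, and the single knockouts have no replicate check.

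When CDC42 binds GTP it changes shape and holds proteins that carry a short binding motif, the CRIB (Cdc42/Rac interactive binding) motif. The CDC42EP proteins, also called Borg proteins, bind CDC42 with this motif and bind septins, which assemble into filaments beside actin bundles. CDC42SE1 and CDC42SE2 are very small membrane-attached CDC42 binders. TNK2, also called ACK1, is a tyrosine kinase. IQGAP1 is a large scaffold that joins CDC42 to actin and to cell junctions, and PARD6A is the polarity adaptor that joins CDC42 to PARD3 and atypical protein kinase C. In migrating cells these pathways act beside the MRCK kinases on the actin cytoskeleton and on front-rear polarity.

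The CRIB motif is what most of these genes share with the deleted kinases, so its coding bases are shown. The core searched for in the translated transcripts of GENCODE v29 (GRCh38) was an isoleucine, then serine or glycine, a proline, a phenylalanine and a pair of histidines, with a short gap of variable length before the phenylalanine. It was found in 20 of 19572 protein-coding genes (0.102%). Those 20 hold the MRCK and PAK kinase genes with the BUB1B-PAK6 readthrough gene, WAS, WASL, and 8 of the 10 effector genes, all but IQGAP1 and PARD6A. In each line below the codons of the core residues are in capitals, 5′ to 3′ on the coding strand, and each stretch lies within a coding exon. The Borg genes come first.
CDC42EP1: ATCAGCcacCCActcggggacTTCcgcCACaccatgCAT
CDC42EP2: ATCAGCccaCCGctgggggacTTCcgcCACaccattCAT
CDC42EP3: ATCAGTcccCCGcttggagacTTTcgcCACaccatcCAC
CDC42EP4: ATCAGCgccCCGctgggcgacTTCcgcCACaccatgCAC
CDC42EP5: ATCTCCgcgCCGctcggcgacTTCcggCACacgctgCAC
The small binders and the tyrosine kinase follow, and the core of MRCKα (CDC42BPA) stands last for comparison.
CDC42SE1: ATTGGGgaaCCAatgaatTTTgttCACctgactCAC
CDC42SE2: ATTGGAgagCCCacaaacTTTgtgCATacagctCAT
TNK2: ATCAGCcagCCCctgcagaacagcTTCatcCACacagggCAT
CDC42BPA: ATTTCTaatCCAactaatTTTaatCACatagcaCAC

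The CDC42EP1 core lies at chr22:37566461-37566499 (plus strand) and encodes residues 38 to 50 of 391. Those of its relatives lie at chr11:65320986-65321024 (CDC42EP2, plus strand), chr2:37646459-37646497 (CDC42EP3, minus strand), chr17:73286384-73286422 (CDC42EP4, minus strand) and chr19:54465443-54465481 (CDC42EP5, minus strand). CDC42SE1 has its core at chr1:151055058-151055093 (minus strand) and CDC42SE2 at chr5:131385573-131385608 (plus strand), in proteins of only 79 and 84 residues. In TNK2 the core at chr3:195872326-195872367 (minus strand) sits near the middle, at residues 517 to 530 of 1086. Between the proline and the phenylalanine the Borg genes have more codons than CDC42SE1, CDC42SE2 and CDC42BPA, and TNK2 has more than the Borg genes. IQGAP1 (chr15:90388218-90502243, plus strand) and PARD6A (chr16:67660946-67662778, plus strand) hold no such core by these letters. IQGAP1 is known to bind CDC42 through a domain related to GTPase-activating proteins, and PARD6A through a partial CRIB motif next to its PDZ domain.

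The libraries held between 10349898 (vector 2) and 10657857 (vector 1) expected counts, which are estimated reads per gene, and between 12911 and 13038 genes reached 10 counts. CDC42BPA was at 36.43 and 23.32 FPKM (fragments per kilobase of transcript, scaled to the depth of the library) in vector 1 and 2, at 29.43 in the MRCKα KO, 34.94 in the MRCKβ KO, and 28.31 and 26.06 in DKO. CDC42BPB was at 30.28 and 29.11 FPKM in vector, 27.29 in the MRCKα KO, 25.7 in the MRCKβ KO, and 23.42 and 23.47 in DKO. The RNA of both targets was present in the knockouts. Edits by a guide RNA in coding sequence need not remove the RNA, so these values do not check the labels. The study examined the proteins by immunoblot, which is not analysed here. The cells showed keratins and several mesenchymal genes together, with KRT8 at 137.58 to 220.07 FPKM and VIM at 1532.08 to 2052.46 FPKM. SNAI2 (47.42 to 61.86), ZEB1 (21.62 to 24.42) and FN1 (20.11 to 45.7) were expressed as well. The mesenchymal gene CDH2 (0.27 to 0.65) was near 0, like the epithelial genes CDH1 (0.25 to 0.64) and EPCAM (0.73 to 2.62). Of 5 leukocyte markers, CD3E had at most 3 counts in every library and only LYZ had 10 counts in all. Of 5 fibroblast markers, COL1A1 had 115 to 183 counts and PDGFRB 69 to 363. COL1A2 had 2 to 49 counts, COL3A1 1 to 48 and DCN at most 6. Their summed level was 11.1 FPKM in vector 1 and 3.75 to 7.28 FPKM in the other libraries. Whether this had a part in the values below was not tested.

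Per length, the effector genes fell into tiers. CDC42EP1 (median 70.7 FPKM over the 6 libraries), IQGAP1 (70.7) and CDC42EP3 (60.01) stood highest, and their ranges over the libraries overlapped. CDC42SE1 (25.1), CDC42EP2 (24.6) and CDC42EP4 (23.6) followed and were not separated from each other, but each of their libraries lay below every library of the upper tier. TNK2 (13.03) and CDC42SE2 (11.8) overlapped. PARD6A (3.71) lay below all of these in every library, and CDC42EP5 (0.16) was last. These medians correspond to the 93.6th percentile of all genes for CDC42EP1 and the 43.8th for PARD6A.

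**Figure D1:**
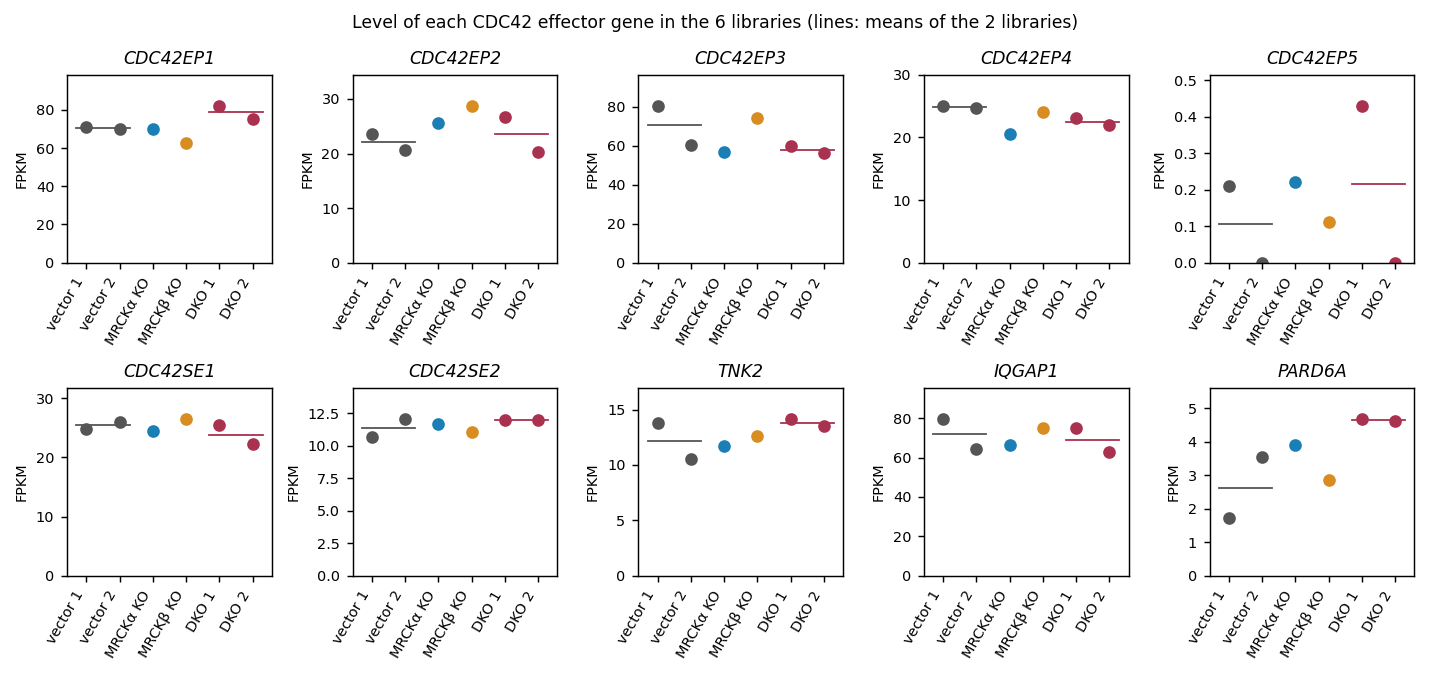
Level of each effector gene in FPKM (y axis, from 0, with its own scale per gene) in the 6 libraries (x axis). Points are libraries and lines are the means of the 2 vector or 2 DKO libraries. PARD6A is lowest in vector 1 (1.72) and highest in the DKO libraries (4.67 and 4.62), and CDC42EP5 stays at or below 0.43.

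Among the Borg genes, CDC42EP1 and CDC42EP3 carried most of the RNA. CDC42EP1 was at 71.23 and 69.96 FPKM in vector 1 and vector 2, at 70.22 in the MRCKα KO, at 62.66 in the MRCKβ KO, and at 82.11 and 75.31 in DKO 1 and DKO 2. Both DKO libraries were above both vector libraries, and the MRCKβ KO was the lowest of all. The difference between DKO and vector was 0.14 ± 0.11 on the log2 scale (SE, n = 2 against 2, 95% interval -0.14 to 0.41), with an adjusted p of 0.9996 by edgeR's quasi-likelihood test after Benjamini-Hochberg adjustment over 13123 genes, so it did not pass the test.

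CDC42EP3, which is known to coordinate actin and septin networks in cancer-associated fibroblasts, was at 80.49 FPKM in vector 1 but at 60.37 in vector 2. It was at 56.78 in the MRCKα KO, 74.48 in the MRCKβ KO, and 59.65 and 56.47 in the DKO libraries. The vector libraries differed from each other by 1.33-fold, more than vector 2 differed from either DKO library, although both DKO libraries lay below both vector libraries. The edgeR difference was -0.28 ± 0.16 on the log2 scale (95% interval -0.67 to 0.11, unadjusted p = 0.126, adjusted p = 0.9996). Leaving out vector 1 gave -0.06 and leaving out vector 2 gave -0.47, so its size depended on the control used.

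CDC42EP2 was at 23.67 and 20.71 FPKM in vector, 25.61 in the MRCKα KO, 28.74 in the MRCKβ KO, and 26.72 and 20.34 in DKO. The vector and DKO ranges overlapped, with a difference of 0.06 ± 0.18 on the log2 scale (95% interval -0.37 to 0.50), and its sign turned when DKO 1 (-0.16) or vector 2 (-0.03) was left out. In GENCODE v29, 84.8% of the exon bases of CDC42EP2 are shared with AP000944.2, a gene on the same strand. Reads of these genes cannot be told apart there. Whether AP000944.2 took part in the counting of the deposited data was not examined.

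CDC42EP4 had the closest vector libraries of the tested Borg genes, at 25.06 and 24.75 FPKM, against 20.48 in the MRCKα KO, 24.01 in the MRCKβ KO, and 23.18 and 21.93 in DKO. Every knockout library lay below both vector libraries. The DKO difference, -0.17 ± 0.12 on the log2 scale (95% interval -0.47 to 0.13), was between -0.22 and -0.13 with any 1 library left out and did not pass the test (edgeR, adjusted p = 0.9996).

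CDC42EP5 was barely detected. Its expected counts were 2 and 0 in vector, 2 in the MRCKα KO, 1 in the MRCKβ KO, and 4 and 0 in DKO. A library with 0 counts may have held up to 3 at this depth, so no difference was detectable and the gene was left out of the test.

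In counts scaled to library depth, the small binders, like TNK2, differed little between libraries. CDC42SE1 was at 24.85 and 25.95 FPKM in vector, 24.48 in the MRCKα KO, 26.44 in the MRCKβ KO, and 25.39 and 22.21 in DKO, and the DKO and vector libraries overlapped. CDC42SE2 was at 10.66 and 12.04 FPKM in vector, 11.65 in the MRCKα KO, 11.03 in the MRCKβ KO, and 12 and 11.95 in DKO. Over all 6 libraries CDC42SE2 spanned 0.23 on the log2 CPM scale (counts scaled to the depth of the library), the narrowest range of the 9 tested genes, followed by TNK2 (0.27) and CDC42SE1 (0.28). The DKO differences were -0.12 ± 0.14 for CDC42SE1 (95% interval -0.45 to 0.21) and 0.05 ± 0.14 for CDC42SE2 (95% interval -0.29 to 0.39) on the log2 scale. With 1 library left out, CDC42SE1 ran from -0.23 (without DKO 1) to -0.02 (without DKO 2), and the sign of CDC42SE2 turned without vector 1 (-0.05). In GENCODE v29, CDC42SE1 shares 13.19% of its exon bases with C1orf56 and 11.3% with MLLT11 on the opposite strand. The sources used here do not state whether the counting used strand. The same limit holds for CDC42EP3, which shares 2.26% of its exon bases with AC006369.1, and for TNK2, which shares 2.45% with TNK2-AS1.

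TNK2 was at 13.76 and 10.50 FPKM in vector, 11.67 in the MRCKα KO, 12.58 in the MRCKβ KO, and 14.13 and 13.48 in DKO. In FPKM the vector libraries differed by 1.31-fold, and vector 1 lay between the DKO libraries. In CPM vector 1 (54.3) lay above both DKO libraries (52.8 and 52.3). The edgeR difference on counts was 0.09 ± 0.15 on the log2 scale (95% interval -0.27 to 0.44). On FPKM the log2 ratio of the means was 0.19, while on counts it was 0.08. The length by which FPKM divides was estimated per library for TNK2 and ran from 3735.37 bases in DKO 1 to 4194.79 bases in vector 2.

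IQGAP1 was at 79.44 and 64.12 FPKM in vector, 66.50 in the MRCKα KO, 74.91 in the MRCKβ KO, and 75.17 and 62.85 in DKO. Both groups held a high and a low library, with 1.24-fold between the vector libraries and 1.2-fold between the DKO libraries. The difference was -0.08 ± 0.16 on the log2 scale (95% interval -0.46 to 0.31), and its sign turned without vector 1 (0.08) or without DKO 2 (0.05).

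PARD6A had the widest range. It was at 1.72 and 3.54 FPKM in vector, from 23 and 46 expected counts, at 3.89 in the MRCKα KO (49 counts), 2.85 in the MRCKβ KO (38 counts), and 4.67 and 4.62 in DKO (61 counts each). Both DKO libraries were above both vector libraries, but the vector libraries differed by 2.06-fold and the DKO libraries by 1.01-fold. The edgeR difference was 0.80 ± 0.43 on the log2 scale (95% interval -0.24 to 1.83, unadjusted p = 0.11, adjusted p = 0.9996). Leaving out vector 1 gave 0.36 and leaving out vector 2 gave 1.41, so the size of the difference depended on the control used. At these counts the interval still includes a change of more than 2-fold upward.

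Across the genes tested, the differences of the effector genes between DKO and vector were of the size seen over all genes. No gene of the 13123 passed an adjusted p of 0.05 by edgeR (0%), and 313 had an unadjusted p under 0.05 (2.39%), none of them among the 9 effector genes. DESeq2 called 4 genes of all after adjustment and limma 0, and again none of them was an effector gene. Of the 9, 5 were higher and 4 lower in DKO, with a median of 0.05 on the log2 scale against -0.0024 over all tested genes. Leaving out DKO 1 turned that median to -0.16, and leaving out vector 2 turned it to -0.04. Their median difference regardless of sign was 0.12, against 0.13 over all tested genes. In 4 of the 9 the DKO and vector libraries did not overlap (CDC42EP1 and PARD6A higher in DKO, CDC42EP3 and CDC42EP4 lower), whereas 29% of all tested genes did not overlap. The 95% interval stayed between -1 and 1 in 8 of the 9, PARD6A being the exception, and in 76.7% of all tested genes.

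**Figure D2:**
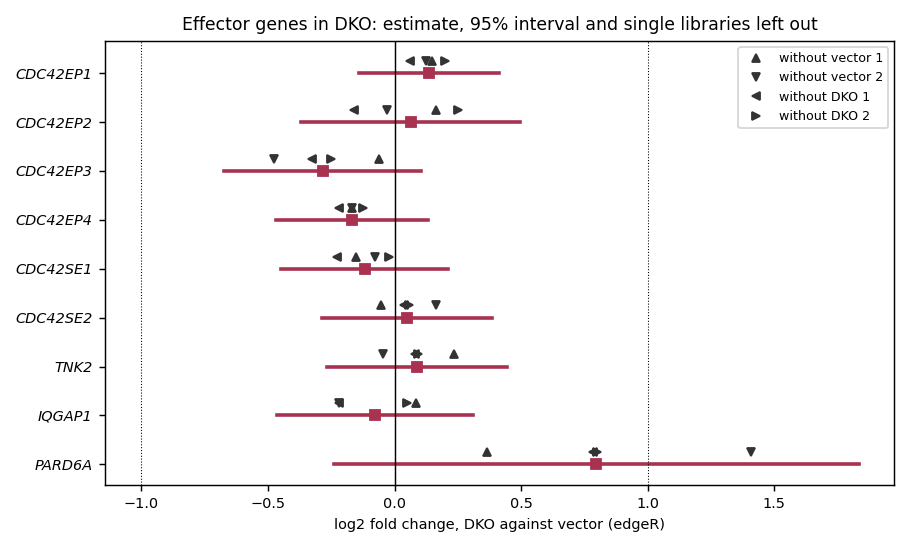
Log2 fold change of DKO against vector by edgeR (x axis) for the 9 tested effector genes (y axis). Squares are estimates, bars are 95% intervals, triangles are the estimates with 1 library left out, and dotted lines mark -1 and 1. Every bar crosses 0, and the PARD6A triangles run from 0.36 without vector 1 to 1.41 without vector 2.

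A fold rule after the study's methods compares FPKM values, leaves out genes over 2-fold apart between replicates, and calls a gene changed when the log2 ratio reaches 1 or -1. PARD6A (2.06-fold between the vector libraries) and CDC42EP5 (0 in only 1 vector library) were left out by it, the latter because a gene at 0 in only 1 replicate was counted here as over 2-fold apart. The study also left out poorly expressed genes by a limit not given in the sources used here, and no such limit was set in these counts. None of the other 8 effector genes was past the rule in any knockout, and none with a limit of 1 FPKM in either group. Over all genes with a ratio, 4.42% were past it in the MRCKα KO, 3.53% in the MRCKβ KO and 1.78% in DKO. The 3 comparisons share the vector libraries.

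For the single knockouts the values are those of 1 library, so there is no test. In MRCKα KO, the log2 ratio of FPKM to the vector mean ran from -0.31 (CDC42EP3) to 0.21 (CDC42EP2). The lower level of CDC42EP4 (-0.28) was nearly the same against each control, -0.29 against vector 1 and -0.27 against vector 2, and the ratio of its counts was -0.30 with an exact binomial 95% interval of -0.43 to -0.17. That of CDC42EP3 depended on the control, at -0.50 against vector 1 and -0.09 against vector 2. PARD6A, outside the rule, was 1.18 above vector 1 and 0.14 above vector 2 on the log2 scale. The counting intervals of CDC42EP2 (0.03 to 0.34), CDC42EP3 (-0.39 to -0.27) and IQGAP1 (-0.18 to -0.08) also lay wholly above or below no change. Those of the remaining effector genes did not. For IQGAP1 this was so although its FPKM ratio was -0.26 against vector 1 and 0.05 against vector 2.

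In MRCKβ KO the ratios of the 8 genes ran from -0.17 (CDC42EP1) to 0.37 (CDC42EP2). CDC42EP2 was above each control, by 0.28 and 0.47 on the log2 scale, and the ratio of its counts was 0.36 with an exact binomial 95% interval of 0.22 to 0.51. CDC42EP1 was below each control, by -0.19 and -0.16. CDC42EP3, CDC42SE2, TNK2 and IQGAP1 lay between the control libraries. The counting intervals of CDC42EP1 (-0.271 to -0.091), CDC42EP3 (0.013 to 0.121) and IQGAP1 (0.006 to 0.098) also lay wholly above or below no change. Those of the remaining effector genes did not. All these intervals cover counting error only and compare these libraries, not the conditions.

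**Figure D3:**
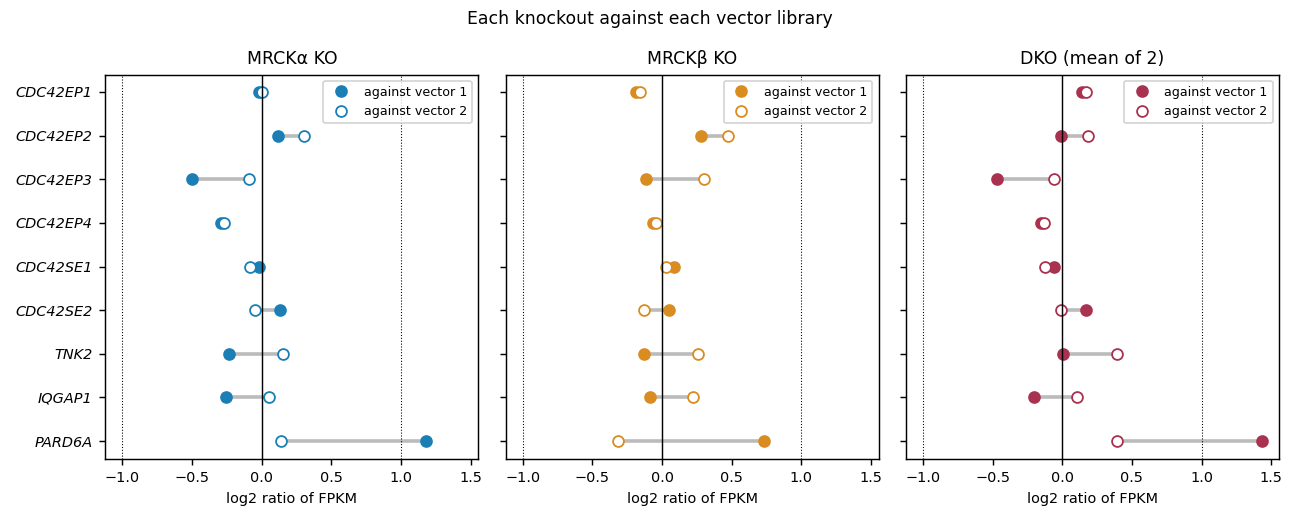
Log2 ratio of FPKM (x axis) of MRCKα KO, MRCKβ KO and the mean of the DKO libraries to vector 1 (filled) and to vector 2 (open) for 9 effector genes (y axis), with dotted lines at -1 and 1. CDC42EP1 and CDC42EP4 give nearly the same ratio against either control, while CDC42EP3, TNK2, IQGAP1 and PARD6A do not. Only PARD6A against vector 1 is past 1, in the MRCKα KO (1.18) and DKO (1.43).

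The vector libraries differed in the way long and short RNAs were represented. Among genes with a mean of at least 100 counts, the median deviation from a gene's own mean over the libraries was 0.06 (vector 1) and -0.10 (vector 2) on the log2 scale for the 823 genes over 7000 bases, and -0.07 and 0.07 for the 488 genes of up to 1000 bases. It was weaker between, at 0.03 and -0.04 for genes of over 5000 and up to 7000 bases and at -0.02 and 0.04 for genes of over 1000 and up to 3000 bases. IQGAP1 (7219 bases), of the longest class, and CDC42EP3 (at least 5317 bases), of the next, were higher in vector 1. PARD6A (at most 1273 bases) was higher in vector 2, but CDC42EP2 (at least 2043 bases), of the same class, was higher in vector 1. Whether length had a part in these differences was not tested.

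Other genes of the pathway, apart from the MRCK and PAK kinases, were read from 5 lists of 64 genes, 63 of them in the table and 55 tested. None of the 55 had an unadjusted p under 0.05 by edgeR (2.39% of all genes did), and none passed after adjustment. CDC42 itself was at 138.96 and 124.08 FPKM in vector, 136.81 in the MRCKα KO, 131.71 in the MRCKβ KO, and 122.54 and 123.24 in DKO, a DKO difference of -0.11 ± 0.12 on the log2 scale. It stood above every effector gene described here in every library. Of the 8 tested MRCK and PAK kinase genes, 1 was higher and 7 lower in DKO, and 2 had an unadjusted p under 0.05 by edgeR, PAK6 (log2 difference -1.95 ± 0.49) and CDC42BPB (-0.37 ± 0.11). Neither passed after adjustment (edgeR, adjusted p = 0.9996). PAK6 was also past the fold rule in the MRCKα KO (log2 ratio -2.49), with no replicate check. It had 39.62 and 51.51 expected counts in vector, 6.5 in the MRCKα KO, 29.93 in the MRCKβ KO, and 7.67 and 16.28 in DKO. The DKO libraries, at 0.23 and 0.52 FPKM, were over 2-fold apart, so the rule gave PAK6 no ratio in DKO.

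Of 11 tested septin genes, whose products the Borg proteins bind, 3 were higher and 8 lower in DKO, with a median of -0.13 on the log2 scale. The lowest unadjusted p was that of SEPT11 (edgeR, adjusted p = 0.9996), at 77.17 and 83.49 FPKM in vector and 74.13 and 71.12 in DKO. Of 8 genes of the polarity complexes, the partners of PARD6A among them, 4 were higher and 4 lower, with a median of -0.03. The lowest p there was that of PRKCI, an atypical protein kinase C, at 23.67 and 24.70 FPKM in vector and 28.07 and 29.64 in DKO (log2 difference 0.24 ± 0.11, unadjusted p = 0.079 and adjusted p = 0.9996 by edgeR).

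Of 12 other tested effectors (formins, WASP relatives, mixed-lineage kinases, adaptors and IQGAP relatives), 7 were higher and 5 lower in DKO, with a median of 0.06. TNK1, a relative of TNK2, was not among the genes found with the CRIB core, and whether it binds CDC42 was not examined. It had 8 and 7 counts in vector, 36 in the MRCKα KO, 21 in the MRCKβ KO, and 22 and 11 in DKO. It was past the fold rule in the MRCKα KO, at 1.19 FPKM against 0.26 and 0.23, with no replicate check. Its DKO difference was 1.11 ± 0.61 on the log2 scale (edgeR, unadjusted p = 0.115).

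Of 15 tested genes for CDC42, its close relatives and its exchange factors, which load it with GTP, 8 were higher and 7 lower in DKO, with a median of 0.02. ARHGEF6 was past the fold rule in the MRCKα KO, at 0.52 FPKM (26.95 counts) against 1.18 and 1.25 in vector (61.22 and 63.4 counts). It was at 1.2 in the MRCKβ KO and at 0.88 and 0.77 in DKO. Of 9 tested genes for the GTPase-activating proteins and dissociation inhibitors that switch CDC42 off or hold it, 7 were higher and 2 lower, with a median of 0.07, and SRGAP1 had the lowest p (edgeR, unadjusted p = 0.35).

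**Figure D4:**
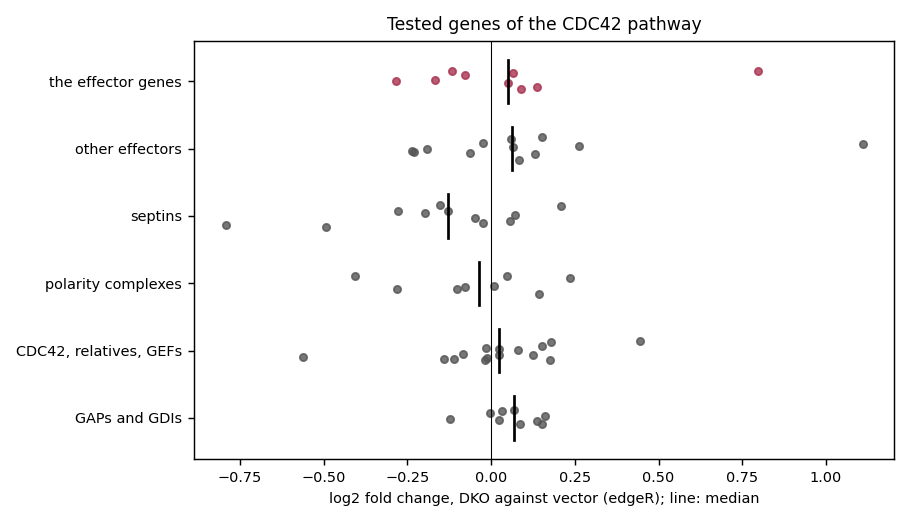
Log2 fold change of DKO against vector by edgeR (x axis) for the tested genes of each list (y axis). Points are genes and black lines are medians, which lie between -0.13 (septins) and 0.07 (GAPs and GDIs). The point farthest right is TNK1 (1.11), and PARD6A (0.80) is the effector gene farthest from 0.

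PARD6A, the effector gene with the widest range, was set beside 12263 other genes by the root mean square difference of log2 CPM, each gene centred on its own mean over the 6 libraries. The closest were IL6 (0.08), SLC7A14 (0.15) and LOC107987205 (0.16). IL6, the cytokine interleukin 6, was at 3.67 and 8.43 CPM in vector, 7.97 in the MRCKα KO, 6.9 in the MRCKβ KO, and 9.71 and 10.3 in DKO. Like PARD6A, these genes were lowest in vector 1. They were picked for this likeness, which therefore is a description only.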

How the data were processed

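RNA of 6 MDA-MB-231 libraries was sequenced by the authors' provider as single-end reads of 50 bases on BGISEQ-500. The submitters' processing notes name HISAT, Bowtie2, RSEM and GRCh38.p11, without versions. The deposited expected counts estimate the reads of each gene and were not normalized, and the deposited FPKM values were made by the authors' provider from reads, estimated transcript length and library total. Whole numbers made up 61.3% to 62.1% of the values above 0. Strand of counting is not given in the sources used here.

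The 10 effector genes and the lists were chosen with earlier results of these data known. Expected counts were rounded. For DKO against vector, genes passing filterByExpr were tested with edgeR 4.0.16 (TMM, quasi-likelihood, R 4.3.3) on the 4 libraries, with Benjamini-Hochberg adjustment at 0.05. The steps were tested on simulated data. Vector cells came from separate transductions and DKO cells from separate guide sets, and p-values measure only the spread between these libraries. Counting intervals cover counting error only, and reads carry no molecular identifiers by which copies of a molecule could be told apart. DESeq2 1.42.0, limma 3.58.1 on FPKM (log2 scale, pseudocounts of 0.1 and 1, mean level of 0.5 or more), other scalings and filters, a replicate block, a joint fit of all 6 libraries and each library left out were alternatives.

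All 10 effector genes were named. Of each list, the genes with an unadjusted p under 0.05 or past the fold rule with 1 FPKM or more in some group were named, or else the gene with the lowest p. Some results are not reported here. Coding bases came from GENCODE v29 transcripts on GRCh38.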

Additional observations from a re-analysis of the deposited data

How the results depend on the processing

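None of the effector genes passed an adjusted p of 0.05 under any of the alternatives, although DESeq2 called 4 genes of the whole table. Under the 10 alternatives that kept all libraries, 0 of 90 effector gene values changed sign. An unadjusted p under 0.05 was reached by 1 effector gene with the replicate block (CDC42EP3), beside 6.07% of all tested genes. With limma on log2(FPKM + 1) it was reached by 1 (PARD6A), beside 2.96% of all tested genes. The share over all tested genes with limma on log2(FPKM + 0.1) was 3.2%. With single libraries left out, between 0 and 2 effector genes reached it (CDC42EP3 and PARD6A without vector 2). Such fits leave 1 library in a group, which is assumed to vary like the other group, from which alone the spread then comes. For the related genes the count was 2 with the replicate block, 2 with limma on log2(FPKM + 0.1) (SEPT5 and ARHGEF6), and between 0 and 6 with a library left out, 6 without vector 1 and 5 without vector 2. The block called 5 genes of all after adjustment and gave 796 with an unadjusted p under 0.05, against 313 without it. The labels give no pairing behind the numbers, and over 13123 genes the differences between replicates 1 and 2 of vector and DKO correlated at 0.147. Leaving out vector 1 gave 1154 such genes of all, and leaving out vector 2 gave 805. With a library left out, the median of the effector genes ran from -0.159 (without DKO 1) to 0.083 (without vector 1). The values whose sign turned ran from -0.159 to 0.252 for CDC42EP2, from -0.054 to 0.162 for CDC42SE2, from -0.044 to 0.236 for TNK2, and from -0.221 to 0.083 for IQGAP1. Without a filter on replicates, 1 effector gene was past the fold rule in MRCKα KO and 1 in DKO (CDC42EP5 both times, from 4 counts or fewer in a library). Leaving out a vector or DKO library gave between 0 and 1 in MRCKα KO and in DKO (PARD6A without vector 2). The causes were not tested. With 1 library for each single knockout and 2 in the other groups, the data limit which differences can be seen.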

Other observations

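The relatives of the scaffold genes were described after their values were seen. IQGAP3, a relative of IQGAP1 linked to proliferation, was at 25.55 and 26.71 FPKM in vector, 27.31 in the MRCKα KO, 27.12 in the MRCKβ KO, and 26.66 and 31.54 in DKO, while IQGAP2 had at most 10 counts in any library. Of the relatives of PARD6A, PARD6B was at 6.65 and 4.08 FPKM in vector and 6.20 and 4.10 in DKO, so its level was above that of PARD6A in vector and it spread more within the groups than between their means. PARD6G was at 3.10 and 3.31 FPKM in vector and 3.58 and 3.63 in DKO, but at 1.95 in the MRCKα KO and 2.24 in the MRCKβ KO. The single knockout libraries were the lowest of the 6 for PARD6G, with no replicate check.

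Within a library, the ratio of CDC42EP1 to CDC42EP3 in FPKM was formed after the values were seen, from a gene higher and a gene lower in both DKO libraries, which fixed its direction in DKO. It was 0.885 and 1.16 in vector, 1.24 in the MRCKα KO, 0.841 in the MRCKβ KO, and 1.38 and 1.33 in DKO. The summed level of the 5 Borg genes was 201 and 176 FPKM in vector, 173 in the MRCKα KO, 190.0 in the MRCKβ KO, and 192 and 174 in DKO, and the vector and DKO ranges of the sum overlapped.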
